A study of Rattus norvegicus with 3 samples.

Results

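The comparison set the array of thoracic aorta from rats given allylamine at 70 mg/kg against the array from rats given 35 mg/kg. Its members were the genes that could be read at both doses, 2459 of the 4736 genes with a named probe set (a group of short oligonucleotides that reports 1 transcript). All animals were Sprague Dawley rats dosed for 20 days, and the third array, used only to set a common scale and as a reference level, came from rats given water at 1 ml/kg. Each group had 1 array, and whether that array held RNA from pooled rats or a single rat was not given in the sources used here. No difference between the doses could therefore be tested, and no value has an error between animals. Age, sex and dosing route were not given there either.

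Allylamine is an unsaturated primary amine that is toxic to heart and arteries. Semicarbazide-sensitive amine oxidase, an enzyme abundant on vascular smooth muscle, oxidises it to acrolein, a reactive aldehyde, with hydrogen peroxide and ammonia as further products. Acrolein is cleared mainly by conjugation with glutathione and by aldehyde dehydrogenases and reductases, and electrophiles of this kind are known to induce genes of the Nrf2 pathway through the antioxidant response element. Repeated dosing is known to damage medial smooth muscle and to change the matrix of the arterial wall.

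The deposited values were linear intensities. They were scaled to a common median, and an intensity of 188 (the 40th percentile of all scaled values) served as a floor below which values were taken as having no order. A probe set was measured when it lay above the floor at both doses, as 3932 of 8740 did, and a gene's difference was the median over its measured probe sets of log2 intensity at 70 mg/kg minus log2 intensity at 35 mg/kg. Intensities are scaled ones, except that ratios of the control transcripts added to the hybridisation mix use the deposited values. The lower and higher dose are 35 and 70 mg/kg. The dimmest measured value, of the phosphofructokinase gene Pfkl, was 188.5, and the brightest left out, of the microtubule gene Map1a, was 188.3.

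Cytochrome b5 (Cyb5a), a carrier of electrons to P450 enzymes, read higher at 70 than at 35 mg/kg on each of its 3 probe sets, with a median log2 difference of 2.15. Biglycan (Bgn, -2.62), a proteoglycan of the arterial wall, and argininosuccinate lyase (Asl, -2.54), which makes arginine, read lower on each of 2. The differences of most other genes rested on 1 probe set, and probe sets of the same gene often disagreed. Of the 2459 genes, 355 (14.4%) were higher at 70 mg/kg by at least 2-fold, 514 (20.9%) were lower by as much, together 869 (35.3%), while 1590 lay within 2-fold. The median difference over all genes was -0.06 on the log2 scale, and the middle 50% ran from -0.81 to 0.61. A 4-fold difference was reached by 64 genes upward and 118 downward, and an 8-fold difference by 2 and 20. Those higher made up 40.9% of these genes, but 48.5% in the deposited values without rescaling, 47.1% after quantile normalization, 49.8% with a floor at the 5th percentile and 22.4% with a floor at the 75th percentile, so the split moved with the scaling and the floor. At the edge of the 2-fold rule, Mfng (1.00) and Sdc4 (-1.01) were counted, and Map3k8 (0.998) and Suox (-0.999975) were not. Of the 2277 genes not measured at both doses, 361 (15.9%) exceeded the floor at 70 mg/kg alone by at least 2-fold and 324 (14.2%) at 35 mg/kg alone. A further 915 lay below it at both doses, and the other 677 were above it at 1 dose by less than 2-fold or had probe sets above it at different doses.

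**Figure D1:**
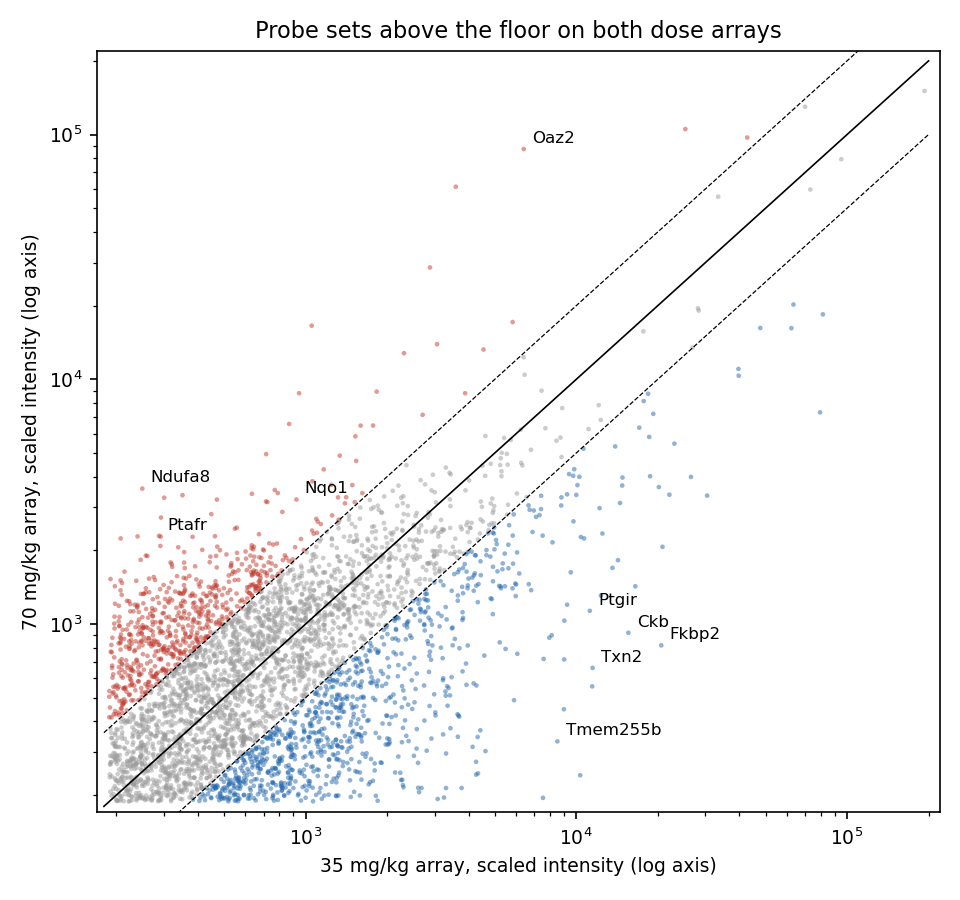
Scaled intensity at 70 mg/kg against 35 mg/kg for the 3932 measured probe sets, both axes logarithmic. Red points are at least 2-fold higher at 70 mg/kg, blue points at least 2-fold lower, the solid line marks equal values and the dashed lines 2-fold; the points fan out widely, with log2 values correlated at r = 0.55.

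Genes represented by several probe sets gave the only repeat reading within an array, and these readings differed widely. In 611 pairs of measured probe sets for the same gene but designed on different sequence accessions, covering 394 genes, the differences had the same sign in 326 pairs, or 53.4%, and correlated with r = 0.08. In 222 pairs designed on the same accession, the sign was shared in 48.2% and r was -0.02. The median gap between paired probe sets was 1.14 on the log2 scale in both kinds of pair, larger than the 2-fold rule itself. The SD of probe set differences within a gene was 1.22, against 1.20 over all measured probe sets. With both probe sets of different accessions above an intensity of 316 at both doses, the sign was shared in 161 of 300 pairs (53.7%). Agreement was higher only among the brightest: above 659 in 53 of 81 pairs (65.4%), and above 1028 in 23 of 32 (71.9%). Bright probe sets also leaned to 1 side, with 47 genes at least 2-fold higher and 163 lower at the floor of 659. The part of this lean in the shared signs was not tested. Most of the 2-fold differences, 736 of 869 or 84.7%, rested on 1 measured probe set. The values below are therefore readings of 2 arrays by particular probe sets.

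**Figure D2:**
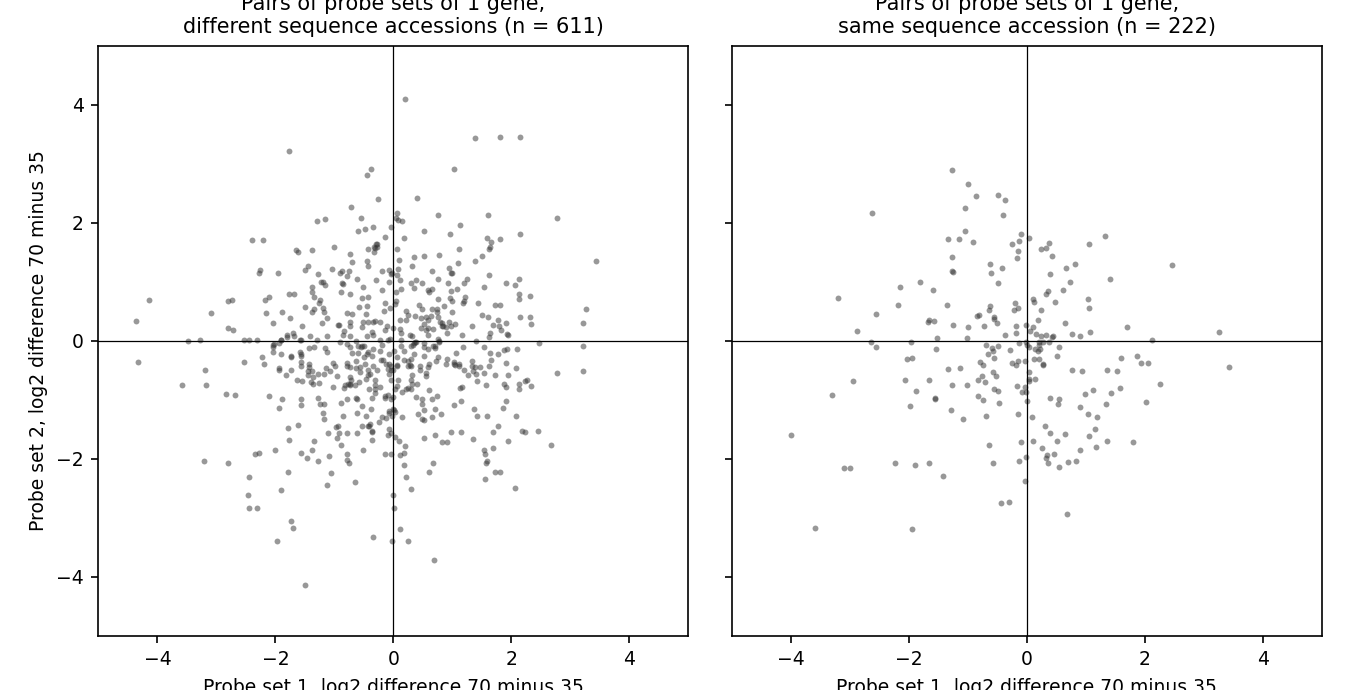
Log2 difference (70 minus 35 mg/kg) of 1 probe set against another of the same gene, for 611 pairs of different sequence accessions (left) and 222 pairs of the same accession (right). Each point is a pair; the points fill all 4 quadrants, with the same sign in 53.4% and 48.2% of pairs.

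The direction of a difference also followed how bright a probe set was on the water control array, which is no part of the comparison. Those above the floor there were divided by brightness into 4 bins. Among the 818 probe sets in the brightest bin, 43.0% were at least 2-fold lower at 70 mg/kg, 5.87% at least 2-fold higher, and the median difference was -0.79. Among the 661 that lay below the floor in the control, 10.1% were at least 2-fold lower, 25.3% higher, and the median was 0.36. The bins between had medians of 0.15, -0.03 and -0.14. The spread of the array values was narrowest at 70 mg/kg, where the central 90% of log2 values spanned 5.22, against 6.16 at 35 mg/kg and 6.58 in the control. Transcripts spiked into the hybridisation mix were brighter at 70 than at 35 mg/kg in the deposited values, by a median factor of 8.51 over 9 probe sets (5.71 to 11.7). The 3' over 5' ratio of the cytoskeletal actin control probe sets was 1.42 at 70 mg/kg, 0.542 at 35 mg/kg and 0.376 in the control. The same ratio for the glycolytic control gene GAPDH had another order, 0.226 at 70 mg/kg, 0.318 at 35 mg/kg and 0.175 in the control. The part that brightness, spike-in level and these ratios play in the differences between the doses was not tested.

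**Figure D3:**
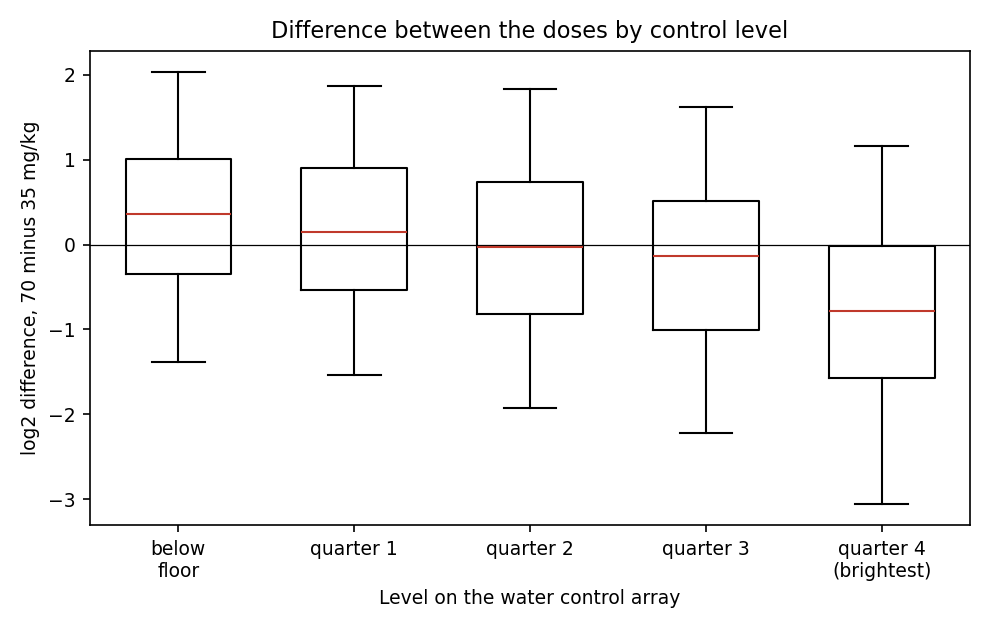
Log2 difference between the doses (70 minus 35 mg/kg) of measured probe sets, grouped by their level on the water control array: below the floor (661), then 4 bins of rising intensity (818, 818, 817 and 818). Boxes span the middle 50% with the median in red and whiskers the central 90%; the medians go from 0.36 on the left to -0.79 on the right.

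The largest difference upward was that of Ndufa8, an accessory subunit of respiratory complex I, whose only probe set read 489.5 in the control, 249 at the lower dose and 3578 at the higher, a difference of 3.84. The 70 mg/kg value stood apart from both others. Oaz2, which encodes an antizyme that restrains ornithine decarboxylase and polyamine uptake, read 2645 in the control, 6395 at the lower dose and 87264 at the higher, a difference of 3.77, with the 3 arrays in the order of dose. For this and later genes in that order, the share among all genes is not given, so the order only describes 3 readings. Ptafr, the receptor for platelet-activating factor, read 460.3 in the control, 288 at the lower dose and 2293 at the higher (a difference of 2.996). The non-homologous end-joining factor Paxx differed by 2.96 on 1 of its probe sets, which read 220.5 in the control, 292 at the lower dose and 2276 at the higher, while the other stayed below the floor on every array. In both Ptafr and Paxx the 35 mg/kg and control values lay far below that at 70 mg/kg.

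The signalling adaptor Arrb2 (beta-arrestin 2) differed by 2.89, from 542 in the control, 257 at the lower dose and 1905 at the higher, and its other probe set went from 140.3 at 35 mg/kg, below the floor, to 436. Aldoa, the glycolytic aldolase of muscle, differed by 2.86 (624 in the control, 207 at the lower dose and 1509 at the higher). The Ral GTPase-activating subunit Ralgapa1 (2.93), the unconventional myosin Myo9a (2.84), the tight junction protein Cldn7 (2.60), dystrophin (Dmd, 2.54), the cell adhesion molecule Ntm (2.51) and the G protein regulator Rgs9 (2.49) were also among the 15 largest differences upward, each on 1 measured probe set. Prkcb, a protein kinase C, differed by 2.57 on 1 probe set, but another went from 618 at 35 mg/kg to 108.1 at 70 mg/kg, below the floor. The glyoxylate reductase Grhpr differed by 2.54, and here another probe set went from 7832 to 120.9, so that with a floor at the 25th percentile its difference was -1.74. Apart from Oaz2, all 15 were dim at 35 mg/kg, from 204 for Dmd to 382 for Prkcb.

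The largest difference downward was that of Tmem255b, a membrane protein gene, which read 6065 in the control, 8514 at the lower dose and 332 at the higher, a difference of -4.68. Fkbp2, a peptidyl-prolyl isomerase of the endoplasmic reticulum, read 7998 in the control, 20601 at the lower dose and 818 at the higher (-4.65). Txn2, the thioredoxin of mitochondria, read 17209 in the control, 11489 at the lower dose and 662 at the higher (-4.12). Ckb, the brain-type creatine kinase, read 16834 in the control, 15572 at the lower dose and 922 at the higher (-4.08), whereas another Ckb probe set from the same accession lay at 135.3 at 35 mg/kg, below the floor, and at 253.9 at 70 mg/kg. In each of these genes the control and 35 mg/kg arrays were both bright and the 70 mg/kg array was low.

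The prostacyclin receptor Ptgir, through which prostacyclin relaxes vascular smooth muscle, had a different pattern. It read 1420.4 in the control, 11219 at the lower dose and 1133 at the higher, a difference of -3.31, so that the 35 mg/kg array was the one apart. The insulin receptor substrate Irs2 (-3.26) and the glucuronosyltransferase Ugt2b (-3.44) were also brightest at 35 mg/kg, at 2604 and 79500.6. A further Irs2 probe set went the other way, from 88.7 at 35 mg/kg to 1184 at 70 mg/kg. Cma1, a mast cell chymase that can form angiotensin II, differed by -3.38 (1208 in the control, 2289 at the lower dose and 220.0 at the higher). Arl6ip4 (-3.95), the serotonin receptor Htr5b (-3.65), Tmem79 (-3.60), the phosphatidylserine decarboxylase Pisd (-3.29), the metalloprotease meprin (Mep1a, -3.24) and Kctd13 (-3.18, 3 probe sets from -3.59 to -0.74) completed the 15 largest differences downward together with the clathrin light chain Cltb. Cltb was at -3.67 on 1 probe set, but 2 others crossed the floor upward, and with a floor at the 5th percentile the gene was at 1.53.

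**Figure D4:**
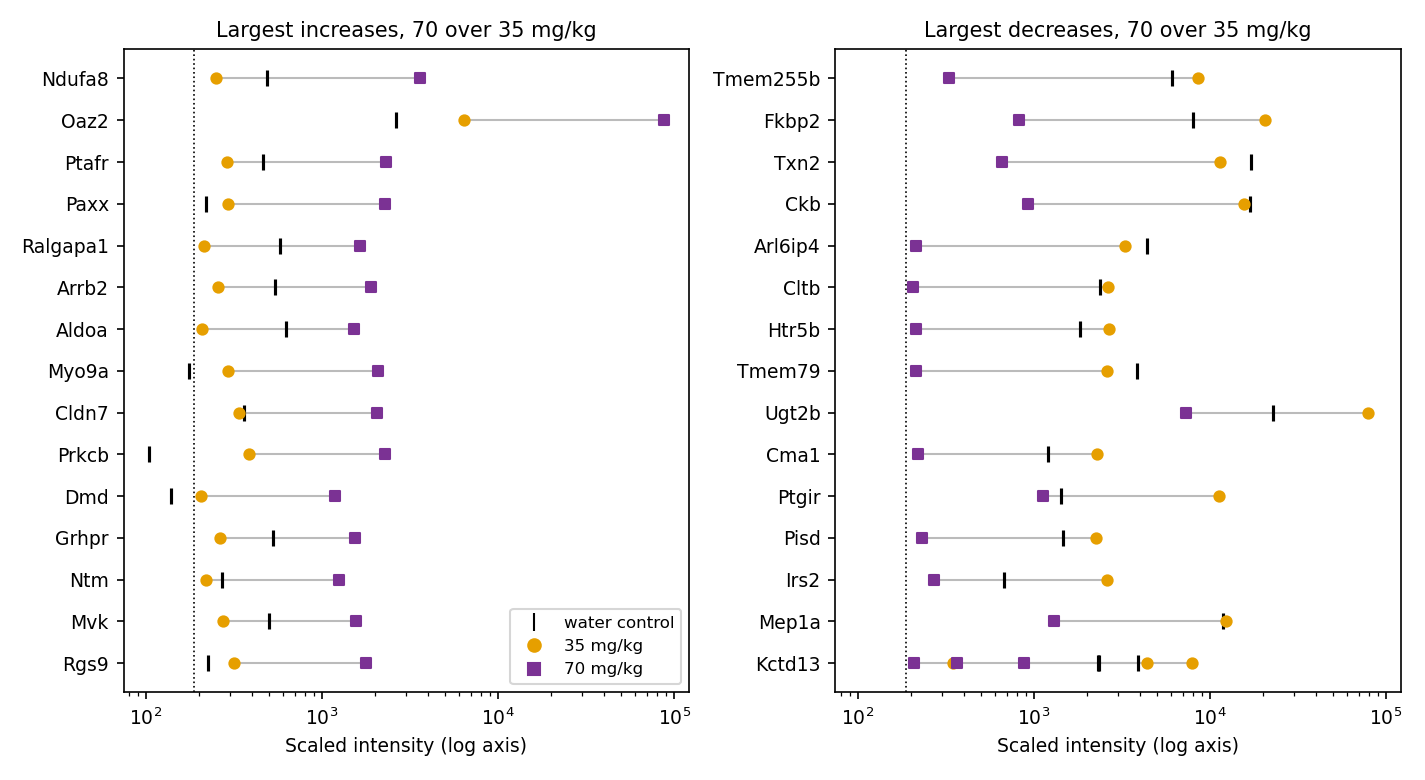
Scaled intensity (log axis) of the 15 genes with the largest difference upward (left) and downward (right) at 70 mg/kg, 1 row per gene; black ticks are the water control array, orange circles 35 mg/kg and purple squares 70 mg/kg, joined for each measured probe set. The dotted line is the floor at 188. The genes on the left, other than Oaz2, lie between 204 (Dmd) and 382 (Prkcb) at 35 mg/kg. Those on the right vary at 70 mg/kg, some near the floor and others, such as Fkbp2, Txn2, Ckb and Ptgir, well above it.

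A stricter reading takes genes whose measured probe sets came from at least 2 sequence accessions and were each at least 2-fold different in the same direction; probe sets below the floor at a dose do not enter. Of 394 genes with measured probe sets from at least 2 accessions, 6 were higher at 70 mg/kg (1.52%) and 18 lower (4.57%). Among pairs of different accessions with both probe sets at least 2-fold different, 54 of 96 (56.25%) shared a sign. Agreement in such pairs was thus little more common than disagreement. By gene median, the shares over all 2459 genes were 14.4% higher and 20.9% lower. How many genes would meet the stricter rule with unrelated probe sets was not tested, so the genes below remain readings like the others. Cyb5a had the most probe sets of the 6, and also serves lipid desaturases. Its 3 probe sets read 714 and 3169, 821 and 2872, and 300.6 and 3283 at 35 and 70 mg/kg, differences of 2.15, 1.81 and 3.45. In the control array they lay at 316, 231.4 and 91.8, below both doses. The inositol polyphosphate phosphatase Minpp1 differed by 1.66 and 1.67 on its 2 probe sets, and the parathyroid hormone receptor Pth1r, which mediates vasodilation in vessels, by 1.59 and 1.73. The Na-K-Cl cotransporter Slc12a2 (1.55), the heparin-binding growth factor Hbegf (1.21), a mitogen for smooth muscle cells, and the serotonin transporter Slc6a4 (1.15) completed the 6. For Hbegf the readings were 411 and 882 on 1 probe set and 324 and 806 on the other, with the control between the doses on both.

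On the lower side of this reading stood biglycan (Bgn), a small proteoglycan of the arterial wall that binds collagen and lipoproteins. Its probe sets went from 2802 to 304 and from 2575 to 628 between 35 and 70 mg/kg, differences of -3.21 and -2.04, with control values of 3987 and 1164. Leptin (Lep), the hormone of fat cells, differed by -1.501 and -4.14, and hormone-sensitive lipase (Lipe), which releases fatty acids from stored fat, by -1.35 and -1.70. Argininosuccinate lyase (Asl), which makes the arginine used by nitric oxide synthases, differed by -2.47 and -2.61. Its readings were 1252 and 226.5 on 1 probe set and 1528 and 250.7 on the other. The death-promoting Bcl2 family member Bcl2l11 (Bim) differed by -1.73 and -3.05, and the vacuolar proton pump subunit Atp6v1a by -2.27 and -1.90. The embryonic myosin Myh3 (-2.43) and the protease inhibitor Serpina1 (-2.01) were lower on 2 probe sets each, as were Adap1 (-1.93), thyrotropin-releasing hormone (Trh, -1.79) and Samd1 (-1.72). In Myh3 another 2 probe sets crossed the floor upward, and in Lep another 1. The mRNA-decay factor Zfp36 also met this rule at -1.33, with readings of 9999.8 and 3371, and 1227 and 579.

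Among genes above the floor at 1 dose only, the homeobox gene Shox2 exceeded its 35 mg/kg reading by at least 12.1-fold at 70 mg/kg, the ERK phosphatase Dusp6 at least 11.3-fold, the odorant receptor gene Or1f19e at least 10.6-fold, the ribosomal protein gene Rps6 at least 9.52-fold and Kdr, the main endothelial receptor for VEGF, at least 9.51-fold. Kdr read 91.9 in the control, 144 at the lower dose and 1791 at the higher. Those lower were Cxxc5, by at least 22.8-fold, the sulfotransferase Sult5a1, by at least 18.6-fold, Lrch4, by at least 16.1-fold, and the retinaldehyde dehydrogenase Aldh1a1, by at least 13.7-fold. Aldh1a1 read 706 in the control, 2588 at the lower dose and 143 at the higher, highest at the lower dose. Shox2 and Sult5a1 were at 3192 and 11011 in the control, so in both genes the array below the floor stood apart from the control as well.

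The lists below are read against the shares for all genes, 14.4% higher and 20.9% lower, and against the median of -0.06. Members above the floor at 1 dose only, given as bounds, have other shares. Of the 2277 genes not measured at both doses, 15.9% were at least 2-fold above it at 70 mg/kg only and 14.2% at 35 mg/kg only. Each list was read for its 4 largest differences, and further genes named from it were chosen after their values were seen, apart from a fixed set that includes Nqo1, Hmox1, Eln and Acta2. For 12 measured enzymes of amine and aldehyde metabolism the median was -0.65. Of these, 0 were higher and 3 (25%) lower by at least 2-fold, the latter near the share for all genes, and 9 lay below 0. The median stayed below 0 in all 13 alternative settings (-0.85 to -0.01). For this and later lists, the settings reprocess the same arrays, so a kept sign is not a repeat measurement. Aldh3a2, the fatty aldehyde dehydrogenase, differed by -1.16, and the methylmalonate semialdehyde dehydrogenase Aldh6a1 by -1.14, from 2205 in the control, 3872 at the lower dose and 1759 at the higher. Aldh3a2 was at 0.81 when the floor was lowered to the 5th percentile and its other probe sets entered. The sulfotransferase Sult1a1 was at -1.68 on 1 probe set while another went from 22.7 to 463 across the floor, and with 100 added to each value and no floor it was at 0.42. The formaldehyde-clearing dehydrogenase Adh5 (-0.92), the diamine oxidase Aoc1 (-0.78), the monoamine oxidase Maoa (-0.71), the carbonyl reductase Cbr1 (-0.59, probe sets at 0.04 and -1.21) and the aldose reductase Akr1b1 (-0.51) lay below 0 within 2-fold. A second Maoa probe set went from 114.6 to 776 across the floor. Aldh7a1, which oxidises lysine-derived and lipid aldehydes, went the other way as a bound of at least 3.12-fold. It was the 1 member higher as a bound of at least 2-fold, against 3 lower. Aldh2, the mitochondrial aldehyde dehydrogenase, read 359 in the control, 162 at the lower dose and 194 at the higher, and its 35 mg/kg value lay below the floor.

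Glutathione and electrophile response genes were spread to both sides, where 20 were measured, 6 of them (30%) higher by at least 2-fold and 4 (20%) lower, with a median of 0.42. The quinone reductase Nqo1 read 901 in the control, 926 at the lower dose and 3227 at the higher, a difference of 1.80. The control and 35 mg/kg values were close and its other probe set stayed below the floor. Txnrd1, the cytosolic thioredoxin reductase, read 423 in the control, 356 at the lower dose and 1106 at the higher (1.64). The glutathione transferases Gstm1 (2.09, 3 probe sets at 2.78, 2.09 and -0.55), Gstm2 (1.10) and Gsta4 (1.06, probe sets at 2.12 and 0.01) and the transpeptidase Ggt5 (1.78) were also higher. With the brightest probe set, Gstm1 was at -0.55. Of the enzymes that make and regenerate glutathione, 3 lay on the other side. The modifier subunit of glutamate-cysteine ligase, Gclm, read 113 in the control, 917 at the lower dose and 343 at the higher (-1.42). Glutathione synthetase (Gss) read 5691 in the control, 1541 at the lower dose and 461 at the higher (-1.74), although another probe set crossed the floor upward, and glutathione reductase (Gsr) read 1172 in the control, 1037 at the lower dose and 393 at the higher (-1.40). Gstm7 differed by -1.84. Heme oxygenase Hmox1 was equal at the doses, at 299.5 and 300.7, and at 727 in the control, and its other probe set lay below the floor at both doses. Gclc, the catalytic subunit of the same ligase, lay below the floor at both doses, and Gstp1 lay above the floor at 35 mg/kg only. The list median was -0.06 when the floor was set at the 5th percentile and -0.16 at the 75th.

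Because members of this list differed in direction, their promoters are shown for 1 gene on each side. The core of the antioxidant response element, TGACNNNGC, was searched on both strands in the 300 bases from 250 before to 50 after each gene's start (RefSeq, GRCr8). It was found in 12.2% of 27457 promoters and in 3 of the 14 measured list genes that matched a promoter by symbol: Gclm, Gstm7 and Me1, with differences of -1.42, -1.84 and 0.34. The promoter of Gclm (chr2:213031885-213032184, + strand) holds 1 match, in capitals, read on the opposite strand, and that of Nqo1 (chr19:52220218-52220517, - strand) holds none in this window.
Gclm: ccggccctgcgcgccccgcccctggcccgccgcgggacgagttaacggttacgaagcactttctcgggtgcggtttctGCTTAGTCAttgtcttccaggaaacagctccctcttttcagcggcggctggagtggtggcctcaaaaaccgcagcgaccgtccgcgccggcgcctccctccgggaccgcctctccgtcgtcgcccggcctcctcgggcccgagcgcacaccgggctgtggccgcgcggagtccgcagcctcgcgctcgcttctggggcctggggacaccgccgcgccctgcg
Nqo1: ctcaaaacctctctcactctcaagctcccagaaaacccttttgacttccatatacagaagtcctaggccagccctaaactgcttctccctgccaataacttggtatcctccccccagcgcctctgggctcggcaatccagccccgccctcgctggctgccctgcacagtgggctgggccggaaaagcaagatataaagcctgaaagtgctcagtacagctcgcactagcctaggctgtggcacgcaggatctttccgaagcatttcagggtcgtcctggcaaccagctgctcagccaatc
A match is a description of these letters and not a binding site.

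Superoxide and peroxide clearing enzymes had 19 measured genes, of which 3 were at least 2-fold higher and 1 was lower, with a median of -0.34 that lay above 0 in 6 of 13 alternative settings. The lower gene was Txn2, given above. The manganese superoxide dismutase of mitochondria, Sod2, read 245 in the control, 1096 at the lower dose and 2692 at the higher (1.30), in the order of dose. The peroxiredoxin Prdx1 read 12.8 in the control, 227 at the lower dose and 1019 at the higher (2.16), also in that order. The copper-zinc dismutase Sod1 differed by -0.57 and -0.53 on 2 bright probe sets, at 28325 and 19098 and at 28154 and 19515, both doses lying above the control values of 9490.1 and 9169. Prdx2 was lower by at least 8.97-fold, and catalase (Cat) was above the floor only at 70 mg/kg, on 1 of 3 probe sets.

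Of the genes for collagens and structural matrix, 5 of 25 measured were at least 2-fold higher, 5 lower, and the median was 0.04. Elastin (Eln), which gives the aorta its recoil, read 412 in the control, 191 at the lower dose and 772 at the higher (2.02); the 35 mg/kg value lay just above the floor and below the control. The adhesive plasma protein vitronectin (Vtn, 1.59) and the fibril collagen Col5a2 (1.12) were also higher. On the other side were Bgn, given above, the laminin chain Lamc1 (-2.31, from 2661 in the control, 2268 at the lower dose and 457 at the higher) and Col1a2 (-1.34), a chain of type I collagen. Dcn, which encodes the collagen-binding proteoglycan decorin, was lower on all 3 measured probe sets, at -1.94, -3.19 and -0.49, of which 2 come from the same accession, while another crossed the floor upward, from 146.7 to 209.8. Its brightest probe set read 20940.2 in the control, 62304 at the lower dose and 16182 at the higher, so that 35 mg/kg stood above both others. The other chain of type I collagen, Col1a1, had 4 probe sets at 3.21, -0.51, 0.30 and -0.10, and Col3a1 had 2 at 0.78 and -0.00. Fibronectin (Fn1) differed by 0.15 and -0.14, at 1219 and 1348 and at 1516 and 1372. Fibromodulin (Fmod) was higher by at least 8.48-fold, 1 of 4 members higher as a bound of at least 2-fold, against 2 lower.

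Genes that process or degrade matrix had 0 of 15 measured members at least 2-fold higher and 4 lower, with a median of -0.18 that reached 0.25 with the floor at the 55th percentile and 0.40 at the 75th. Timp1, an inhibitor of matrix metalloproteinases, read 716 in the control, 1331 at the lower dose and 247 at the higher (-2.43). The elastin crosslinking enzyme Loxl1 differed by -2.83 and -0.91 on 2 probe sets, the urokinase receptor Plaur by -1.20 and the gelatinase Mmp9 by -1.06. The collagen proteinase enhancer Pcolce and the lysyl hydroxylase Plod3 were lower by at least 12.8-fold and 11.3-fold. Pcolce read 168 in the control, 2415 at the lower dose and 94.4 at the higher, so only the 35 mg/kg array was high. Lysyl oxidase (Lox) had 1 measured probe set, at 0.50, and a second went from 806 to 179.1, below the floor.

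For 15 measured genes of the contractile smooth muscle list the median was 0.67, and 9 lay above 0. This median was above 0 in all 13 alternative settings (0.12 to 0.78). At least 2-fold higher were Dmd, phospholamban (Pln, 1.65), which restrains the calcium pump of the sarcoplasmic reticulum, and calponin (Cnn1, 1.32), an actin-binding regulator of contraction. Cnn1 read 218 in the control, 633 at the lower dose and 1579.6 at the higher, in the order of dose. The L-type calcium channel Cacna1c was above 0 on all 3 probe sets, at 1.91, 0.30 and 0.97, and the smooth muscle actin Acta2 on both measured ones, at 0.49 and 0.97. For Acta2 the brighter probe set read 1613 in the control, 1325 at the lower dose and 2603 at the higher. Tagln (SM22), at -0.07, and Myh11, the smooth muscle myosin, with probe sets at 0.91 and -0.31, showed no common direction. The potassium channel subunit Kcnmb1, which tunes the large calcium-activated channel of vascular muscle, was at -1.58 (818 in the control, 769.8 at the lower dose and 258 at the higher). Tropomyosin Tpm1 was at -1.92 by its median, but its 3 probe sets stood at 1.56, -2.35 and -1.92, and with the brightest it was at 1.56. With a floor at the 5th percentile Tpm1 was at 0.13, and with 100 added to each value at 0.06. Actg2, the enteric smooth muscle actin, was higher by at least 4.93-fold and the myosin light chain Myl6 lower by at least 7.01-fold.

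Endothelial and vascular tone genes had 1 of 40 measured members at least 2-fold higher (2.5%) and 8 lower (20%), with a median of -0.19. The lower group held Ptgir, the alpha-1 adrenoceptors Adra1d (-2.03) and Adra1a (-1.82), which constrict arteries, the soluble guanylate cyclase subunit Gucy1b1 (-1.38), which answers to nitric oxide, angiotensin-converting enzyme (Ace, -1.21), the prostaglandin receptor Ptger3 (-1.11), endothelin 1 (Edn1, -1.30) and thrombomodulin (Thbd, -1.16). Adra1d read 1717 in the control, 1979 at the lower dose and 485 at the higher. Ace, which forms angiotensin II, read 1494 in the control, 1549 at the lower dose and 667 at the higher. In both readings the control and 35 mg/kg arrays were close. Another Adra1d probe set crossed the floor upward, from 126.2 to 308, and Ptger3 had further probe sets crossing it in either direction. Edn1, a constrictor peptide of the endothelium, read 291 in the control, 484 at the lower dose and 197 at the higher. Thbd was at 0.58 with a floor at the 5th percentile and at 0.22 after centring on control brightness. The inducible nitric oxide synthase Nos2 was the gene counted as higher (1.17), with 4 probe sets at 1.81, 1.73, 0.60 and -2.22. The endothelial synthase Nos3 had measured probe sets at -0.73, 1.47 and -0.45.

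Potassium channels had 23 measured members, of which 7 were higher by at least 2-fold (30.4%) and 5 lower (21.7%), with a median of -0.08 that was above 0 in 6 of 13 alternative settings. Kcna5, a voltage-gated channel that sets membrane potential in arterial muscle, read 487 in the control, 3015 at the lower dose and 436 at the higher (-2.79), with 35 mg/kg alone high. Kcnj8, the pore of the vascular ATP-sensitive channel, read 1057 in the control, 541 at the lower dose and 225 at the higher (-1.27), highest in the control and lowest at 70 mg/kg. The calcium-activated Kcnn1 (1.94), Kcnh1 (1.94) and the leak channel Kcnk1 (1.87) were higher. Kcnj11, the pore of the pancreatic and cardiac ATP-sensitive channel, was at 1.70 on 2 probe sets of the same accession that differed widely, 3.25 and 0.15.

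The respiratory chain and ATP synthase list had 36 measured members, 8 of them higher by at least 2-fold (22.2%) and 6 lower (16.7%), with a median of 0.03. After Ndufa8 the largest differences upward were those of the mitochondrially encoded oxidase subunit COX3 (2.47, from 979 in the control, 2311 at the lower dose and 12791 at the higher), the ATP synthase subunit Atp5po (2.28) and the complex I subunit Ndufv2 (1.88, from 1428 in the control, 1167 at the lower dose and 4285 at the higher). Atp5po read 10129 in the control, 1831 at the lower dose and 8909.6 at the higher, so that here the 35 mg/kg array was the low one. The oxidase subunits Cox5b (-2.56) and the ATP synthase subunits Atp5f1d (-1.97) and Atp5f1e (-1.31) were lower, though another Atp5f1e probe set went from 137.0 to 362 across the floor. The oxidase subunit Cox6c counted as lower by its median (-1.73), from probe sets at -4.14 and 0.69. Members of the same complex thus lay on both sides.

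Of the TCA cycle and pyruvate entry list, 7 of 22 genes on the array were measured, 0 at least 2-fold higher and 3 lower, with a median of -0.64. Citrate synthase (Cs) read 998 in the control, 1711 at the lower dose and 221 at the higher (-2.95), and the malate dehydrogenase Mdh2 (-1.63) and pyruvate carboxylase (Pc, -1.16) were lower too. Above the floor at 70 mg/kg only and by at least 2-fold were 3 further members, the isocitrate dehydrogenases Idh1 and Idh3g and the pyruvate carrier Mpc1. With a floor at the 75th percentile the list kept 1 gene, at 0.64. Fatty acid oxidation genes had 3 of 18 higher and 5 lower, with a median of -0.41 that was above 0 in 4 of 13 alternative settings. The enoyl-CoA hydratase Echs1 read 769.9 in the control, 1304 at the lower dose and 235 at the higher (-2.47), and the carnitine carrier Slc25a20 differed by -1.97 and the peroxisomal reductase Decr2 by -1.71. Hadha, a subunit of the trifunctional protein, had 3 probe sets at -3.10, -2.16 and 0.47. On the other side were the fatty acid sensor Ppara (1.71), the acyl-CoA synthetase Acsl1 (1.12, probe sets at 0.07 and 2.17) and Crot (1.13).

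Sterol synthesis genes had 10 measured members, of which 2 were at least 2-fold higher and 0 lower, with a median of 0.10. The mevalonate kinase Mvk was at 2.50 on 1 probe set, and a further one fell short of the floor at 70 mg/kg (269.3 and 179.3). Srebf1, a regulator of lipid synthesis, read 702 in the control, 239 at the lower dose and 1179.9 at the higher (2.30), the 35 mg/kg array being low. Of the fatty acid and triglyceride synthesis list, 2 of 14 were higher, Srebf1 and the desaturase Scd (1.74), and 2 lower, the fatty acid synthase Fasn (-1.22) and Lipe. Lipe, though in this list, releases fatty acids from stored fat and is not a synthesis enzyme. Of glycolysis and glucose handling genes, 4 of 21 were higher and 5 lower. Aldoa, the lactate dehydrogenase Ldhb (2.21) and the muscle phosphoglycerate mutase Pgam2 (2.05) lay above, and the hexokinase Hk2 (-2.12), the pyruvate kinase Pkm (-1.60) and the muscle phosphofructokinase Pfkm (-1.34, both probe sets lower by at least 2-fold) lay below.

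Cytosolic ribosomal protein genes had 21 measured members, 5 of them higher by at least 2-fold (23.8%) and 1 lower (4.76%), with a median of 0.53, with 16 genes above 0. The median was above 0 in all 13 alternative settings (0.37 to 0.91). Of 37 on the array, a further 6 were above the floor at 70 mg/kg only by at least 2-fold, and 0 at 35 mg/kg only. Over all genes not measured at both doses, these shares were 15.9% and 14.2%. Rps6 and Rpl39 were among the 6, and Rpl39 read 114 in the control, 38.2 at the lower dose and 1081 at the higher. Rpl31 read 323 in the control, 340.5 at the lower dose and 1116 at the higher (1.71) and Rps3a read 429 in the control, 445 at the lower dose and 1242 at the higher (1.48). Rpl35 was at 1.74 on 1 probe set, and another went from 363 to 114.3, below the floor. Rps29, at 2.14, had probe sets at 0.20 and 4.09. Rplp0 differed by -1.11. Ribosomal protein genes have many near-identical copies in the genome, and reads of such copies by these probe sets cannot be told apart.

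Heat shock and ER chaperone genes lay mostly within 2-fold, with 16 measured, 1 higher and 0 lower by that much, and a median of 0.28 (-0.03 with a floor at the 75th percentile). The small heat shock protein Cryab was the higher one (1.29). Pdia4 (0.90) and Ppib (0.85), which help proteins fold in the endoplasmic reticulum, were above 0, and Hspa1a, the inducible Hsp70, was at 0.23. Hspa5, the main ER chaperone, was above the floor at 70 mg/kg only, by at least 4.995-fold. As bounds of at least 2-fold, 3 members were higher, Hspa5 among them, and 2 lower. Of proteasome and ubiquitin genes, 3 of 17 were higher and 1 lower, Psmb4 being at 2.02, with both other probe sets crossing the floor upward, and Psmd1 at 1.37 with 4 probe sets from -0.44 to 3.43.

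Cell death and cell cycle genes had 3 of 25 measured members at least 2-fold higher and 7 lower, with a median of -0.26 that was below 0 in all 13 alternative settings (-0.55 to -0.13). Beside Bcl2l11, the p53 ubiquitin ligase Mdm2 was at -2.34, with measured probe sets at -4.33 and -0.36, and the TNF receptor Tnfrsf1a at -2.10. The cell cycle inhibitor Cdkn1a (p21), a p53 target like Mdm2, read 1104 in the control, 2865 at the lower dose and 742 at the higher (-1.95), with its other probe set below the floor at both doses. The mitotic kinase Cdk1 (2.03, from 98.7 in the control, 224 at the lower dose and 912 at the higher) and the survival gene Bcl2l2 (2.09) were higher, as was topoisomerase Top2a (1.06), whose measured probe sets stood at 0.05 and 2.08 and whose remaining one read 581 and 112.2, the latter under the floor.

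Of polyamine genes, 7 were on the array and 2 were measured, both antizymes: Oaz2, given above, and Oaz1, which read 96.2 in the control, 267 at the lower dose and 947 at the higher (1.82). Ornithine decarboxylase (Odc1), the enzyme that antizymes restrain, and the antizyme inhibitor Azin1 were above the floor at 70 mg/kg only, by at least 3.28-fold and 2.05-fold. Odc1 read 95.5 in the control, 102 at the lower dose and 618 at the higher on 1 probe set and 290.5, 183.4 and 280 on the other, so both probe sets were higher at 70 than at 35 mg/kg. None of the genes of this list was counted as lower by at least 2-fold, 0 by difference and 0 as a bound. With 2 measured genes, the list supports no more than these readings.

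Cytochrome P450 genes and their redox partners had 31 measured members, 8 of them higher by at least 2-fold (25.8%) and 6 lower (19.4%), with a median of 0.09. Beside Cyb5a, the fatty acid hydroxylases Cyp4a3 (2.43, from 217 in the control, 634 at the lower dose and 3407 at the higher) and Cyp4a1 (1.61, 3 probe sets from 0.40 to 2.14), Cyp2d4 (1.90, 2 probe sets at 3.26 and 0.54) and the P450 reductase Por (1.02, 3 probe sets from -0.39 to 2.92) were higher. Cyp3a23-3a1 (-2.41) and Cyb5r3 (-2.08), the cytochrome b5 reductase, were lower, the latter with probe sets at -2.80, 0.68 and -2.08. P450 genes of a subfamily are close in sequence, so probe sets for them may read more than 1 gene.

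**Figure D5:**
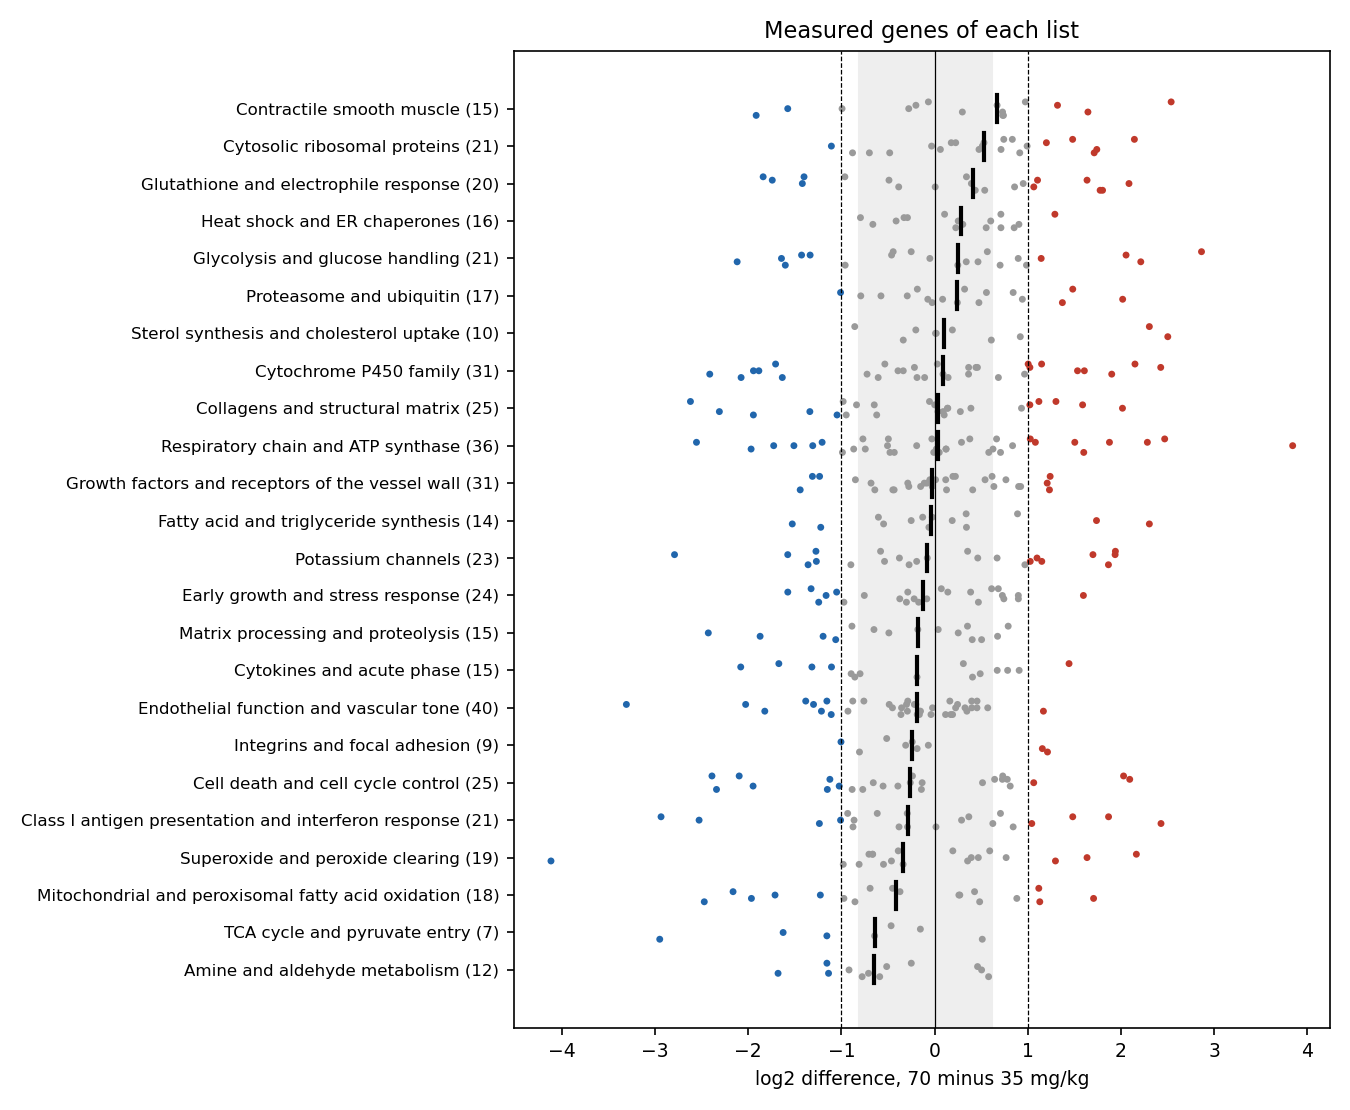
Log2 difference (70 minus 35 mg/kg) of every measured gene in 24 lists with at least 5 measured genes, in the order of their medians (black bars), with the number of measured genes in brackets. Red points are at least 2-fold higher, blue points at least 2-fold lower, dashed lines mark 2-fold and the grey band the middle 50% of all genes (-0.81 to 0.61); list medians run from -0.65 to 0.67.

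Marker genes were read to check the tissue label. Of 8 smooth muscle markers on the array, 5 lay above the floor at 35 mg/kg, 6 at 70 mg/kg and 7 in the control, and their summed intensity was 2033, 4165 and 3208. Measured at both doses were 5, with a median difference of 0.30 that fell below 0 in 2 of 13 alternative settings. Of 8 endothelial markers 7, 8 and 6 lay above the floor, with sums of 5669.6, 5669.8 and 6772. Markers of other cells also had members above the floor. Of all probe sets, 59.2% lay above it at 35 mg/kg, 60.7% at 70 mg/kg and 60.1% in the control. A marker counted when any of its probe sets did, so these counts alone do not show that a cell type was present. Adipocyte markers summed to 9909 at 35 mg/kg, 4182 at 70 mg/kg and 6950.3 in the control, with 7, 7 and 5 of 9 above the floor. Of 6 measured, 0 were higher and 2 lower by at least 2-fold, Lep and Lipe, while Plin1 was at -0.60, Pparg at -0.03, Lpl at 0.19 and Ucp1 at 0.63. Fabp4 was above the floor at 70 mg/kg only, by at least 2.50-fold, and Cidea at 35 mg/kg only, by at least 4.56-fold. Mast cell markers summed to 13704, 7189 and 7469, and 7, 6 and 7 of 8 lay above the floor. Of 6 measured, 1 was higher and 2 lower by at least 2-fold, with a median of -0.03: Cma1 and the tryptase Tpsb2 (-1.20) lay below, the histidine decarboxylase Hdc (1.58) and the receptor Kit (0.88) above, and Tpsab1 was at 0.04. Macrophage and monocyte markers summed to 1840, 3407 and 3353, and 4, 5 and 6 of 9 lay above the floor. Of these, 3 were measured and all 3 were higher at 70 mg/kg by at least 2-fold: the leukocyte antigen Ptprc (1.48), Cd14 (1.21, probe sets at 2.48 and -0.05) and the Fc receptor Fcgr2b (1.07). With the brightest probe set Cd14 was at -0.05. The others on the array, Csf1r, Itgam, Lyz2, Aif1, Ctss and Spp1, were not measured at both doses. With a floor at the 25th percentile 3 of 5 were higher and 1 lower, and at the 5th percentile 5 of 9 were higher and 1 lower. T and B lymphocyte markers summed to 3985, 4696 and 6812, with 8, 5 and 8 of 10 above the floor. Of 4 measured, 2 were higher and 1 lower by at least 2-fold. Cardiac and skeletal muscle markers summed to 12378, 9863 and 15830.5, with 14, 14 and 18 of 22 above the floor. Markers of tissues other than aorta were above the floor about as often: 12, 10 and 11 of 14 for neuron and glia, 11, 9 and 12 of 14 for liver and 7, 9 and 11 of 13 for pancreas. The markers therefore do not separate aorta from other tissue on these arrays. In bulk tissue, fewer cells of a type and less RNA per cell cannot be told apart, and the part of cell makeup in the differences was not tested.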

How the data were processed

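RNA of rat thoracic aorta was hybridised to 3 oligonucleotide arrays, 1 per group. The deposited intensity values are linear and came from the authors' processed table; per the values, each array had been brought to a common trimmed mean, and the software was not given in the sources used here. Of 8799 probe sets, 59 control sets were left out, 8740 were used, and 7006 carried 1 gene symbol in the platform annotation, 308 several and 1426 none. Arrays were scaled to a common median, the floor was the 40th percentile of the pooled values, and a gene was the median of its measured probe sets. With 1 array per group no test was made. The number of arrays limits the precision.

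Named genes were the 15 largest differences each way with all measured probe sets of 1 sign, the 10 largest each way carried by 2 accessions, the 4 largest of each list, the 5 largest bounds each way and a fixed set; 1 of these bounds is not reported here. The comparison and the lists were chosen with earlier results of these data known. Alternatives covered scaling, floor, probe set choice and an added constant of 100; 2 centrings on brightness were added after seeing the data. Scripts were tested on simulated data. Python 3.11.15, numpy 2.4.6, pandas 2.3.3 and matplotlib 3.10.9 were used.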

Additional observations from a re-analysis of the deposited data

Results flagged for a closer look

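Control transcripts added to the hybridisation mix were left out of all comparisons, and they carried a signal above that of the control array. In the deposited values, the median over their probe sets of the ratio to the control array was 28.8 at 70 mg/kg and 3.81 at 35 mg/kg. The part of this in the differences between the doses was not tested.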

How the results depend on the processing

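The count of genes at least 2-fold different depended mostly on the floor. The numbers higher and lower at 70 mg/kg were 1017 and 1026 with a floor at the 5th percentile, 590 and 789 at the 25th, 194 and 316 at the 55th and 47 and 163 at the 75th. With 100 added to each value and no floor they were 686 and 701. Under the other settings they lay between 304 and 446 higher and 419 and 573 lower. Genes above the floor at 70 or at 35 mg/kg only, by at least 2-fold, numbered 98 and 46 at the 5th percentile and 90 and 153 at the 75th, where probe sets of 1 gene agreed in sign in 65.4% of pairs. Directions turned for Aldh3a2 (0.81), Cltb (1.53), Hgf (2.43), RT1-S3 (0.95), Thbd (0.58), Thy1 (-0.52) and Tpm1 (0.13) at the 5th percentile, Grhpr (-1.74) at the 25th and Cd14 (-0.047) at the 55th. At the 75th percentile and with the brightest probe set they turned for Cd14 (-0.047), Gstm1 (-0.55) and Tpm1 (1.56). With 100 added they turned for Aldh3a2 (0.44), Cltb (1.10), Hgf (1.22), RT1-S3 (0.47), Sult1a1 (0.42), Thbd (0.057), Thy1 (-0.28) and Tpm1 (0.055). They also turned for Egr4 (0.24) without less specific probe sets and for Thbd (0.22) after centring on control brightness, an alternative added after seeing the data. A lower floor lets in dimmer probe sets and a higher one leaves fewer genes; beyond that the cause was not tested. No paired analysis was possible because each group had 1 array and the labels give no shared replicate numbers. No array could be left out, and signal near the floor limits what dim probe sets can show.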

Other observations

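The remaining lists are given here as counts, beside 14.4% higher and 20.9% lower over all genes. Early growth and stress response genes had 1 of 24 measured members at least 2-fold higher and 5 lower, with a median of -0.13 that was above 0 in 3 of 13 alternative settings. The nuclear receptor Nr4a3 was at 1.60, and the AP-1 member Jund (-1.24) and the mRNA-decay factor Zfp36 (-1.33) were on the other side. Egr4 stood at -1.58, from probe sets at -3.39 and 0.24, and was at 0.24 without the less specific probe sets. Of growth factors and receptors, 3 of 31 were higher and 3 lower, among them the betaglycan receptor Tgfbr3 (1.24), the fibroblast growth factor receptor Fgfr1 (-1.23) and Gas6 (-1.31, probe sets at -2.62 and -0.001). Their median was -0.03 and lay above 0 in 8 of 13 alternative settings. Hgf, a growth factor for endothelium, was at -1.44 but at 2.43 with a floor at the 5th percentile and at 1.22 with 100 added to each value. Integrin and focal adhesion genes had 2 of 9 higher, the collagen receptor Itga1 (1.21) and the laminin receptor Itga7 (1.16), and 1 lower, Sdc4.

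Class I antigen presentation and interferon genes had 4 of 21 measured members higher and 4 lower, with a median of -0.29 that was above 0 in 5 of 13 alternative settings. The chemokine Cxcl10 (1.87), which draws T cells, and RT1-CE12 (2.43) were higher. RT1-CE16 (-2.53) and RT1-S3 (-2.94) were lower, and RT1-S3 was at 0.95 with a floor at the 5th percentile and at 0.47 with 100 added to each value. RT1 genes are close copies, and their probe sets may read more than 1 of them. Cytokine and acute phase genes had 1 of 15 higher, Il15 (1.44), and 4 lower, led by haptoglobin (Hp, -2.08) and Mif (-1.67), with a median of -0.19 that was above 0 in 4 of 13 alternative settings. Of fibroblast and adventitia markers 1 of 7 measured was higher and 2 lower, the former Thy1 (1.71), which had a further probe set above the floor at 35 mg/kg only (636 and 94.5) and was at -0.52 with a floor at the 5th percentile and at -0.28 with 100 added to each value.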
